A study of Carassius auratus with 4 samples.

Results

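The 4 goldfish cDNA clones described here carry 3 genes of the regulated secretory pathway, by the names printed on the array. They are clone 51f06 of secretogranin III, clone 42m19 of secretogranin V, and clones 52l20 and 15o22 of carboxypeptidase E. They were chosen by these printed names, with earlier results of these data known, and are 4 of the 8100 clones on the array, each printed in 2 spots. Clones 52l20 and 15o22 share a target and are no replicates of the treatment. The name of 42m19 carries the remark that it rests on a forward sequence only.

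The arrays compared 2 groups of dispersed cells from male and female goldfish (Carassius auratus) pituitaries. The treated cells received 10 nM goldfish secretoneurin for 12 h, and the control cells are labelled as having had no incubation. It is not clear from this label whether the control cells were kept for the same time without the peptide. If they were not, incubation and peptide cannot be told apart in the comparison. The labels give no strain, age or number of fish. Each of 4 arrays held 1 treated and 1 control sample, with secretoneurin RNA in Cy5 on replicates 1 and 3 and in Cy3 on replicates 2 and 4. The labels do not say whether the 4 pairs came from separate cultures, so the spread behind each p-value may be technical only. The number of arrays limits the precision.

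Endocrine cells store peptide hormones in dense-core granules, where acidic, calcium-binding proteins of the granin family aggregate with the hormones. Secretogranin III is known from rodent endocrine cells to bind cholesterol in the granule membrane and chromogranin A in its core. Secretogranin V, also called 7B2, is known from mammals as the chaperone of prohormone convertase 2, and its carboxy-terminal peptide inhibits that enzyme. Carboxypeptidase E removes the basic residues that convertases leave at the carboxy terminus of peptide intermediates. Secretoneurin itself is cut from another granin, secretogranin II, and the comparison of these clones asks whether transcripts for storing and processing such precursors differed between treated and control cells.

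Over the 4 arrays, 0 of the 4 clones passed the limma test, as did 0% of all 8089 probes tested. By an unadjusted p under 0.05 it was also 0 of the 4, where 2.76% of all probes lay. Under 0.1, which is not the threshold used here, lay 1 clone, 52l20, at 0.0941, where 7.34% of all probes lay. That p depended on the direction taken for 2 of the arrays, as given below. The 4 fitted ratios of secretoneurin over control lay below 0, where 49.4% of all probes lay, and their median was -0.054 on the log2 scale against 0.0014 for all probes. Carboxypeptidase E clone 52l20 gave the most even ratios, a mean of 0.922-fold with a 95% confidence interval of 0.833 to 1.02. Secretogranin III stood at 0.962-fold, with an interval of 0.863 to 1.07, and secretogranin V at 0.995-fold, with an interval of 0.832 to 1.19. The second carboxypeptidase E clone, 15o22, was too dim in control cells for a fold to be given.

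Before these ratios are read, 1 property of the arrays has to be stated. Replicates 2 and 4 carried the dyes in the same orientation, yet their log2 ratios over all probes correlated at r = -0.61, taken across probes, which are not independent replicates. Among probes above background in both channels the correlation was -0.63. The other array pair of 1 orientation, replicates 1 and 3, correlated at 0.25. Replicate 2 correlated at -0.0061 with replicate 1 and at 0.11 with replicate 3, and replicate 4 at -0.11 and -0.25 with the same arrays. Among probes above background these values were -0.029 and 0.12 for replicate 2, and -0.28 and -0.40 for replicate 4. The direction of replicates 2 and 4 was taken from the dyes in the labels, and the headers mark the same channel as control. The cause of the correlation between replicates 2 and 4 was not tested. The direction of these 2 arrays is taken here as not settled, so estimates and list counts are also given with the sign and dye of each turned. Turning 1 array leaves 3 arrays in one dye orientation against 1 in the other. In the fit with a dye effect that 1 array then weighs as much as the other 3 together. Of all probes, 50.3% then lay below 0 with replicate 2 turned and 50.9% with replicate 4 turned, and 8.15% and 10.2% had an unadjusted p under 0.05.

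A channel was called above background when its intensity exceeded the local background plus 2 background SDs, and 10.4% of probes met this in both channels on all 4 arrays. Intensities below are means of the 2 spots in scanner units, before any correction, and cannot be set against each other across dyes or clones. In secretoneurin cells the secretogranin III clone gave 4394, 7683, 2697 and 6331 units on replicates 1 to 4. In control cells it gave 8469, 6106, 5062 and 3574 units. All 8 of its spots were above background in both groups, so its ratio rests on measured signal throughout.

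The secretogranin V clone gave 555, 978, 340 and 1070 units in secretoneurin cells, against 1121, 552, 712 and 511 units in control cells. It was above background on 3 arrays in secretoneurin cells, missing on replicate 2, and on 3 in control cells, missing on replicate 1. On both of these arrays the missed channel was Cy3. Of its 8 spots, 6 were above background in secretoneurin cells and 6 in control cells.

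The first carboxypeptidase E clone, 52l20, gave 1095, 2169, 674 and 2449 units in secretoneurin cells. In control cells it gave 2654, 1364, 1392 and 1400 units. It was above background on all 4 arrays in both groups, in all 8 spots.

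The other carboxypeptidase E clone, 15o22, gave 327, 653, 146 and 538 units in secretoneurin cells, and the threshold there was 353, 1321, 101 and 883 units. In control cells it gave 773, 403, 365 and 232 units, below thresholds of 1093, 889, 831 and 257 units. It was therefore not well above background in control cells on any of the arrays, and above it on 1, replicate 3, in secretoneurin cells. Spot by spot, 3 of 8 were above background in secretoneurin cells and 0 of 8 in control cells. Raising the control channel to the lowest signal above background moved 1 array and gave a log2 bound of -0.20, which is under 1-fold, so no fold is given for this clone. The mark does not show that the transcript was absent.

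**Figure D1:**
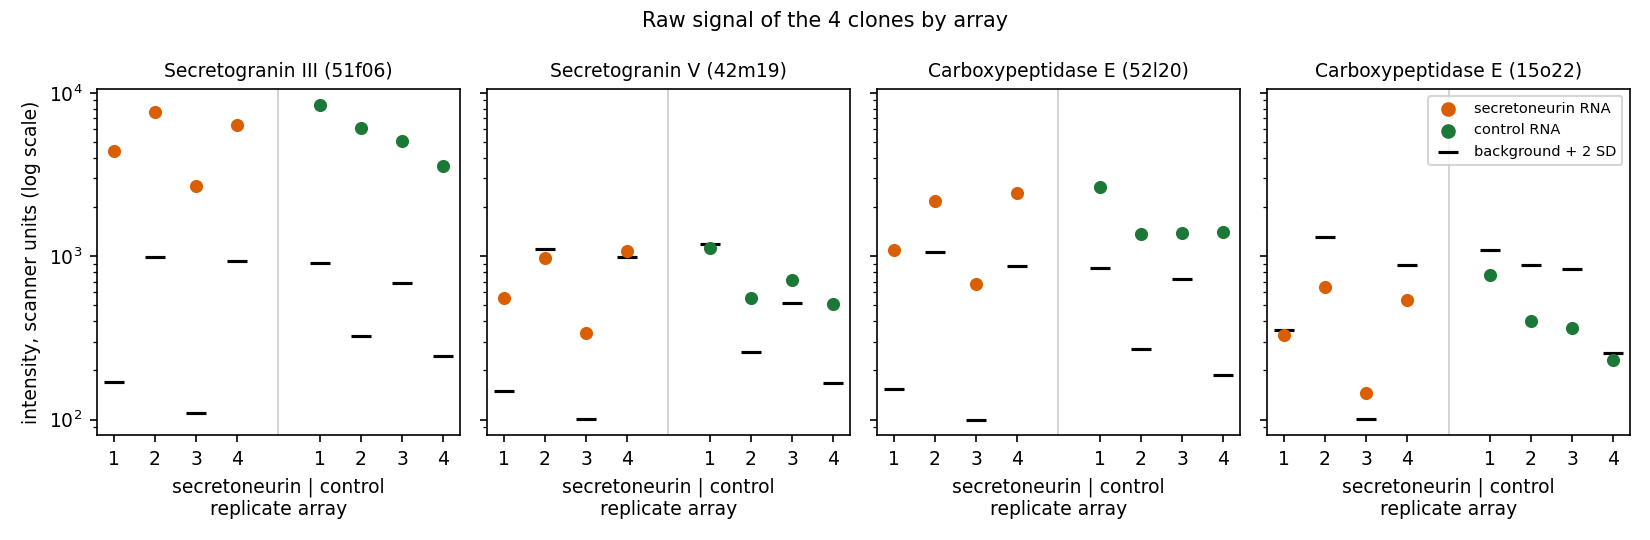
Raw intensity of each clone (vertical log axis, scanner units, mean of 2 spots) on replicate arrays 1 to 4, with secretoneurin RNA on the left and control RNA on the right of each panel; horizontal ticks mark background plus 2 background SDs. Secretogranin III and carboxypeptidase E clone 52l20 lie above the ticks on all 4 arrays, and clone 15o22 lies below them on all 4 in control cells.

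After normexp background correction and loess, secretogranin III had log2 ratios of secretoneurin over control of -0.019, -0.077, -0.13 and 0.0093 on replicates 1 to 4. They lay close to 0 with both directions present, and their SD was 0.064. Its log2 level, scaled between arrays, was 12.31, 12.47, 12.18 and 12.06 in secretoneurin cells and 12.33, 12.54, 12.31 and 12.05 in control cells. The ranges of the groups overlap almost fully. The limma estimate was -0.055 ± 0.057 (SE, 4 arrays), with an unadjusted p of 0.386 and an adjusted p of 0.998. The 95% confidence interval ran from -0.21 to 0.10. The median probe had an interval of 0.19 to either side of its estimate.

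Secretogranin V had log2 ratios of 0.40, -0.31, -0.011 and -0.11. Replicates 1 and 2 stood on opposite sides of 0, each at least as far out as any ratio of the secretogranin III clone, and their SD was 0.30. Its log2 level was 9.38, 8.76, 9.06 and 9.10 in secretoneurin cells and 8.98, 9.07, 9.07 and 9.21 in control cells. The control values lie inside the range of the treated ones. limma gave -0.0072 ± 0.094 (SE, 4 arrays), a 95% confidence interval of -0.27 to 0.25 and an adjusted p of 0.998. The spread between arrays, not the size of the mean, sets this interval.

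Carboxypeptidase E clone 52l20 had log2 ratios of -0.13, -0.075, -0.098 and -0.16, with an SD of 0.038. It was the one clone of the 4 whose ratios had 1 direction on all 4 arrays. Of 7953 probes measured on every array, 5.55% were below 0 on all 4 and 10.7% had 1 direction on all 4. Its log2 level was 10.47, 10.34, 10.13 and 10.61 in secretoneurin cells and 10.61, 10.42, 10.23 and 10.77 in control cells. The secretoneurin value was the lower one within each array, while the ranges of the groups overlap. The limma estimate was -0.12 ± 0.054 (SE, 4 arrays), with an interval of -0.26 to 0.031 and an adjusted p of 0.998. Its unadjusted p was 0.0941, and 6.65% of the probes had a smaller one. With replicate 2 turned its estimate was -0.11 ± 0.079, with an unadjusted p of 0.234 in limma (25.8% of probes smaller). With replicate 4 turned the estimate was -0.049 ± 0.086, with an unadjusted p of 0.597 (65.4% smaller). Either way 1 array then lay above 0, as it must for any probe below 0 on all 4. An exact permutation test over the 4 arrays, two-sided, gave p = 0.125 for its mean, which is the smallest that 4 arrays allow. Any probe with 1 direction on all 4 arrays gets this p, so it adds nothing to that count. The same test gave 0.25 for secretogranin III and 0.875 for both secretogranin V and 15o22.

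Carboxypeptidase E clone 15o22 had log2 ratios of 0.065, -0.38, 0.16 and -0.051, with an SD of 0.24. Both directions occurred on 2 arrays each. These are not measured folds, because the control signal was below the background threshold on each array. The limma estimate was -0.052 ± 0.079 (SE, 4 arrays), with an interval of -0.27 to 0.16 and an adjusted p of 0.998.

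**Figure D2:**
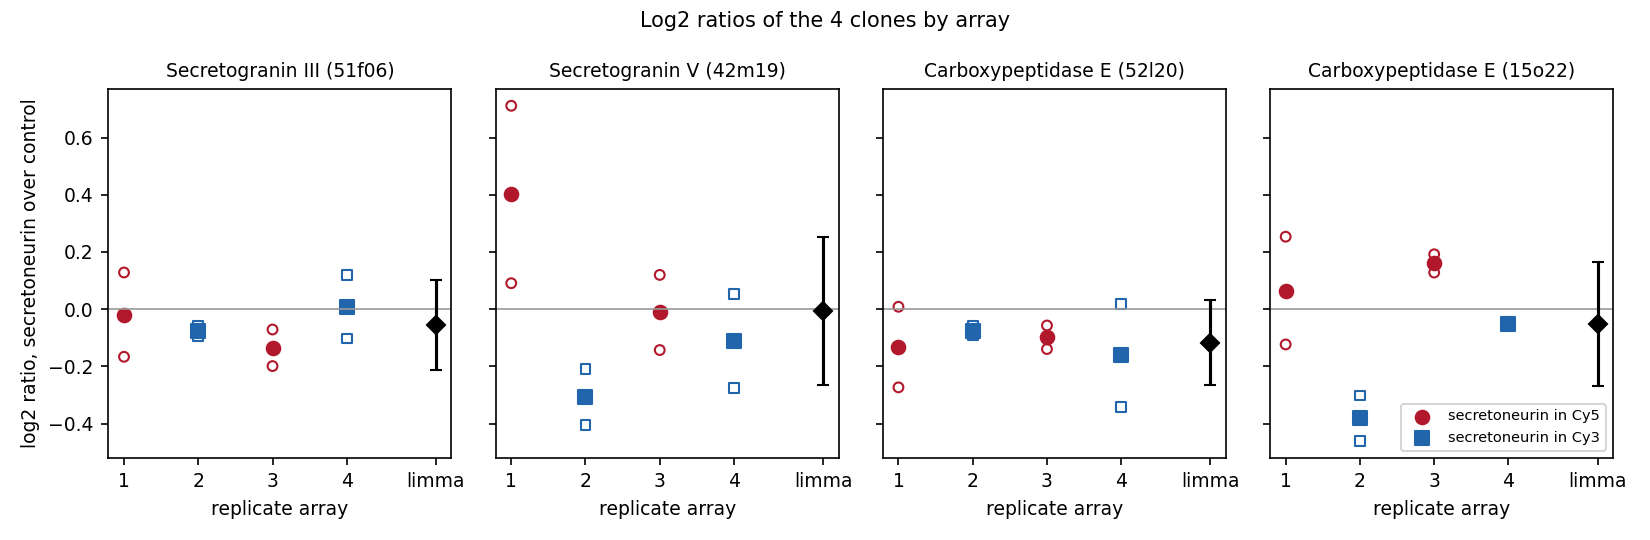
Log2 ratio of secretoneurin over control (vertical axis) on replicate arrays 1 to 4 for each clone; filled symbols are the mean of 2 spots, open symbols the single spots, red circles arrays with secretoneurin RNA in Cy5, blue squares those with it in Cy3, and the black diamond the limma estimate with its 95% confidence interval. All 4 intervals include 0, and clone 52l20 is the one with filled symbols below 0 on all 4 arrays.

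The carboxypeptidase E clones differed from each other by -0.20, 0.31, -0.26 and -0.11 (log2 ratio of 52l20 minus that of 15o22) on replicates 1 to 4. Clone 52l20 had the lower ratio on 3 arrays and the higher one on replicate 2. The mean difference was -0.065 with an SD of 0.25 (n = 4 arrays), and the exact permutation test, two-sided, gave p = 0.625, with 0.125 the smallest possible. The mean difference between the 2 clones of this gene was smaller than its SD over the arrays, and one side of it rests on signal near background. The direction of the difference between fitted estimates was not stable. With replicate 4 turned this fitted difference was 0.096, and with the arrays of secretoneurin in Cy3 alone it was 0.098, against -0.18 with replicate 2 turned. The mean difference over the arrays was -0.0097 with replicate 4 turned, and 0.098 with secretoneurin in Cy3 alone.

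The dyes were exchanged between arrays, so the effect of the dye could be estimated for each clone beside that of the treatment. Secretogranin V averaged 0.19 on the log2 scale where secretoneurin RNA carried Cy5 and -0.21 where it carried Cy3. Clone 15o22 averaged 0.11 with Cy5 and -0.22 with Cy3. The dye effect, Cy5 over Cy3, was 0.20 ± 0.094 for secretogranin V and 0.16 ± 0.079 for 15o22 (SE, limma adjusted p 0.715 for both). Of the 4 clones, those above background on every array stood closer to 0, with a dye effect of -0.021 ± 0.057 for secretogranin III and 0.0015 ± 0.054 for 52l20. This did not hold for bright probes in general. Growth hormone clone 42c08 had 0.44 ± 0.060, somatotropin 15f19 had 0.36 ± 0.10 and thyrotropin beta had 0.092 ± 0.052. These hormone probes were above background in both groups on all 4 arrays. Clone 52l20 averaged -0.12 in either orientation. Over all probes, 6.65% had an unadjusted p under 0.05 for the dye and 0% an adjusted one.

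With the sign of replicate 2 turned, the log2 estimates were -0.0081 for secretogranin III, 0.061 for secretogranin V, -0.11 for 52l20 and 0.076 for 15o22. With that of replicate 4 turned instead they were -0.066, -0.070, -0.049 and -0.14. The estimates of secretogranin III and 52l20 thus lay below 0 both ways, and those of secretogranin V and 15o22 changed side with replicate 2. The side of an estimate need not be that of most arrays. With replicate 4 turned, 15o22 lay above 0 on 3 arrays and below 0 on 1. With replicate 2 turned, secretogranin III lay below 0 on 2 arrays and above 0 on 2. None of the 4 passed the limma test either way, where 0 of all probes did with replicate 2 turned and 1 with replicate 4 turned.

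The spots of a clone lay in different print blocks, which gives a measure of error within an array. The first spot minus the second of 42m19 differed by 0.62, -0.20, 0.26 and -0.33 on the log2 ratio scale. The median absolute difference was 0.175 for secretogranin III, 0.296 for secretogranin V, 0.182 for 52l20 and 0.112 for 15o22, against 0.191 over all clones. The evenness of 52l20 held for spot means more than for single spots. On replicate 4 its spots read 0.019 and -0.34, and on replicate 1 they read -0.27 and 0.0085. For secretogranin III the first spot read above 0 on 2 arrays, at 0.13 on replicate 1 and 0.12 on replicate 4, while the second spot read below 0 on all 4.

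The array held 8 further clones of granins and prohormone-processing enzymes, 7 of secretogranin II and 1 of carboxypeptidase D. Of the 12 clones in this list, 9 had a fitted ratio below 0 and 3 above it, with a median of -0.054. With either array turned it was 7 below and 5 above, with a median of -0.0083 for replicate 2 and -0.057 for replicate 4. Of all probes, 4000 lay below 0 and 4089 above it. The share of all probes below 0 was 50.3% with replicate 2 turned and 50.9% with replicate 4 turned. By unadjusted p under 0.05, 1 clone of the 12 was lower and 0 higher, where 1.56% of all probes were lower and 1.2% higher. That clone was 17o09, printed as secretogranin II of grass carp, at -0.25 ± 0.061 (SE, limma unadjusted p = 0.0127, adjusted p = 0.998). With either array turned, 0 of the 12 had an unadjusted p under 0.05. Among all probes 8.15% had one with replicate 2 turned and 10.2% with replicate 4 turned. Since secretogranin II is the precursor of the peptide given to the cells, its clones are the nearest comparison for the 4 described here.

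Of the 7 secretogranin II clones, 5 lay below 0 and 2 above it, over a range of -0.25 to 0.11. With replicate 2 turned it was 4 below and 3 above, and with replicate 4 turned 3 below and 4 above. Clone 42j04 stood at -0.13 ± 0.083, 53n16 at -0.059 ± 0.084, 42e10 at -0.057 ± 0.066 and 42e09 at -0.036 ± 0.063. Above 0 were 51n02 at 0.11 ± 0.053 and 52l24 at 0.047 ± 0.077. All 7 target 1 gene family by name, and different probes of a gene here disagreed in direction. The ratio of 52l20 lies inside their range. Clone 17o09 lay below 0 on all 4 arrays and 51n02 above 0 on all 4. Having 1 direction on every array was thus not particular to 52l20 among the granin and processing clones. Carboxypeptidase D, a membrane relative of carboxypeptidase E in the trans-Golgi network, had a log2 ratio of 0.078 ± 0.061. It was above background on 1 array in secretoneurin cells and on 0 in control cells, so no fold is given.

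**Figure D3:**
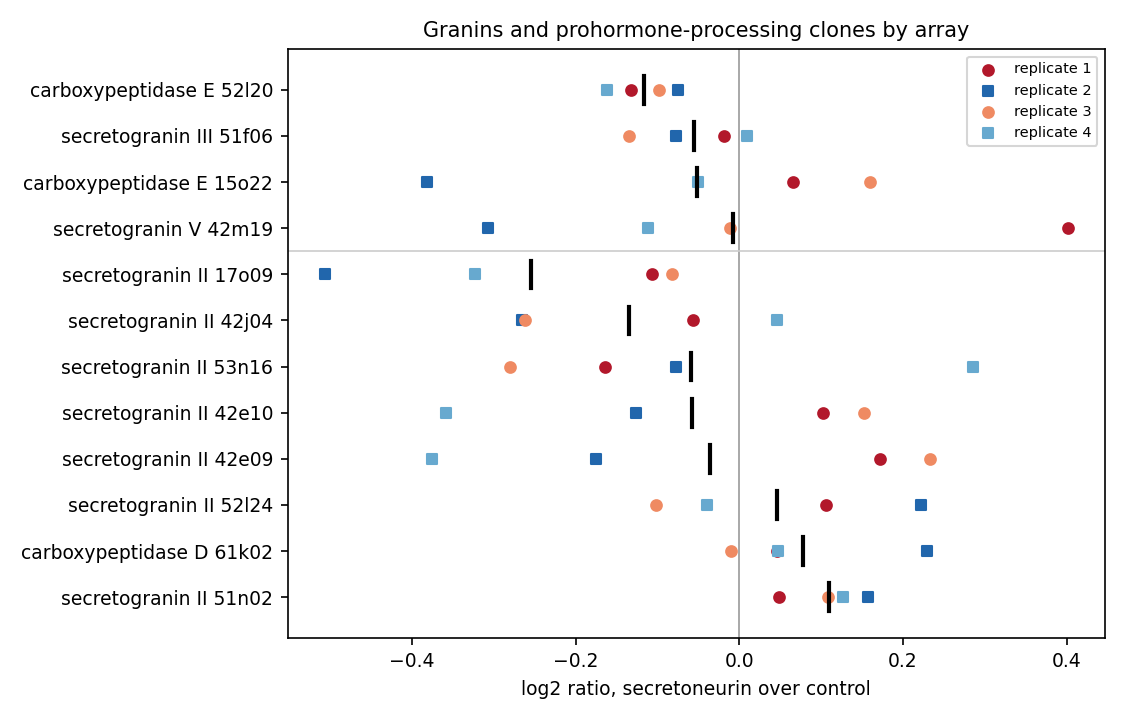
Log2 ratio of secretoneurin over control (horizontal axis) on each of the 4 replicate arrays for the 12 granin and prohormone-processing clones, the 4 described here above the grey line; black bars are limma estimates, circles arrays with secretoneurin RNA in Cy5, squares those with it in Cy3. Estimates run from -0.25 for secretogranin II clone 17o09 to 0.11 for clone 51n02.

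Genes that act beside these proteins in granule formation and release were taken from lists matched on printed names. Of 28 probes matched by name to exocytosis of dense-core vesicles, 18 lay below 0 and 10 above it, with a median of -0.025. Several of the 28 are clones of the same gene. None had an unadjusted p under 0.05, and of all probes 49.4% lay below 0 and 2.76% had such a p. Turning replicate 2 gave 16 below 0 and 1 with such a p, and with replicate 4 turned 17 lay below 0 and 2 had one. Of all probes, 50.3% and 50.9% then lay below 0, and 8.15% and 10.2% had such a p. Only 1 of the 28 exocytosis probes had both dyes over the background threshold every time, and for 4 neither dye ever passed it. The directions counted in this list therefore rest in part on signal near background. SNAP-25B clone 59m23, for a membrane protein of the fusion complex, stood at 0.22 ± 0.090, with control signal below the background threshold on all 4 arrays. Other SNAP-25B clones stood at -0.063 (29o23), -0.051 (61b19), -0.029 (43j17), -0.022 (19n13) and 0.0072 (42e15). Of these, 29o23 was above background on 3 arrays in secretoneurin cells and on 4 in control cells. Syntaxin-4, a fusion protein of the plasma membrane, stood at -0.16 ± 0.066, with signal above background on 2 arrays in secretoneurin cells and 3 in control cells. Complexin-1, which binds the assembled complex, stood at -0.14 ± 0.067, with signal above background on 1 array in each group.

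The vacuolar proton ATPase acidifies the granule, which carboxypeptidase E needs for its activity. Of its 20 probes, 12 lay below 0 and 8 above it, with a median of -0.012, against the 49.4% of all probes below 0. None had an unadjusted p under 0.05, against 2.76% of all probes. With replicate 2 turned 11 of the 19 then tested lay below 0 and 1 had such a p. With replicate 4 turned 12 of 20 lay below 0 and 2 had one. For all probes the shares with such a p were then 8.15% and 10.2%, and those below 0 were 50.3% and 50.9%. Of the 20 ATPase probes, 3 had both dyes over the background threshold every time, and for 3 neither dye ever passed it. Directions in this list thus also rest in part on signal near background. Clone 23p04 of the 16 kDa proteolipid, part of the membrane ring, stood at -0.22 ± 0.084, with 0.23 on replicate 2 against values below 0 on the other arrays. Another clone of that subunit, 58j05, had a ratio of -0.14 ± 0.068 with control signal below the threshold on all 4 arrays. Further clones printed with that name stood at -0.079 (28i04), -0.061 (59m22) and 0.037 (15m24). Of these, 28i04 was above background on all 4 arrays in both groups. Subunit E, in the stalk, stood at -0.12 ± 0.054 with ratios below 0 on all 4 arrays, but was above background on only 1 array in secretoneurin cells, against 4 in control cells.

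Of 5 probes for entry into the endoplasmic reticulum, where all these precursors begin, 4 lay below 0 and 1 above it, with a median of -0.086, where 49.4% of all probes lay below 0. Turning replicate 2 put 5 of 5 below 0, and with replicate 4 turned 3. Of all probes, 50.3% and 50.9% then lay below 0. The translocon-associated proteins stood at -0.14 ± 0.064 for alpha, -0.086 ± 0.057 for delta clone 15f10 and -0.097 ± 0.068 for beta. None of the 5 had an unadjusted p under 0.05, with or without an array turned. Of all probes 2.76% had such a p, against 8.15% with replicate 2 turned and 10.2% with replicate 4 turned. Adjusted p was 0.998 in limma for each probe named from these lists.

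Hormone probes were used to check the tissue label. Growth hormone, a somatotropin of common carp and the thyrotropin beta subunit were above background in both groups on all 4 arrays. GTH-II, a gonadotropin, was above background on 2 arrays in secretoneurin cells and on 1 in control cells. The median ratio of these 4 probes was 0.16, -0.22, 0.32 and -0.38 on replicates 1 to 4, positive where secretoneurin RNA carried Cy5 and negative where it carried Cy3. The median of the 4 clones described here was 0.023, -0.19, -0.055 and -0.081.

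In lists named after other cells, the median log2 ratio was 0.040 for 18 globin probes and 0.0039 for 119 muscle probes. It was 0.012 for 59 neural and glial probes and -0.034 for 36 leukocyte probes. Both dyes exceeded the background threshold every time for 0 globin, 11 muscle, 0 neural and glial and 7 leukocyte probes. Among all 8089 probes this held for 839. Neither dye ever exceeded it for 6, 13, 8 and 2 probes of these lists, in that order, and for 1171 of all probes. Ratios of the globin list and of the neural and glial list therefore rest in part on signal near background. Of the leukocyte probes 27 lay below 0, where 49.4% of all probes lay, and 5 were lower at an unadjusted p under 0.05, as were 1.56% of all probes. Turning replicate 2 left 21 below 0, with 2 lower and 1 higher by that p, and with replicate 4 turned 26, with 5 lower and 4 higher. Of the neural and glial probes 36 lay above 0 and 3 were higher by that p. Of the globin probes 12 lay above 0 and 1 was higher, and of the muscle probes 61 lay above 0 with 1 higher and 1 lower. Among all probes 1.2% were higher. The globin probe called higher, 14n23, is printed as myoglobin, a muscle protein, so that list is not of red blood cells alone. The leukocyte list was matched on the names MHC, invariant chain, immunoglobulin and beta-2-microglobulin. MHC class I and beta-2-microglobulin are not particular to leukocytes, so that list is not of leukocytes alone. Above 0 with replicate 2 turned were 33 neural and glial, 10 globin and 49 muscle probes, and with replicate 4 turned 28, 9 and 65. By an unadjusted p under 0.05, 4 muscle probes were then higher and 11 lower with replicate 2 turned. With replicate 4 turned 18 were higher and 4 lower. Of the 8034 probes tested with replicate 2 turned, 231 were higher and 424 lower by that p. For replicate 4 turned it was 574 higher and 253 lower of 8081. Fewer cells of a type and less RNA per cell cannot be told apart in such bulk samples, and the part of cell makeup in the ratios was not tested.

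The named probes with the most similar pattern over the 4 arrays were found by the root mean square difference of log2 ratios, among 640 probes above background in both channels on at least 2 arrays. This is a description over 4 points per probe, which share arrays, dyes and loess curves. For secretogranin III they were calmodulin clone 52k21, at a difference of 0.010, the ribosomal protein L18 at 0.045 and GAPDH, a glycolytic enzyme, at 0.061. For secretogranin V they were the [Pro2]somatostatin-14 precursor, a hormone precursor of fish, at 0.080, tropomyosin clone 30h14 at 0.095 and beta actin clone 42c09 at 0.13.

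Clone 52l20 lay nearest to a prion-like protein named tPrP-like, at 0.018, with fast skeletal myosin light chain 3 at 0.045 and calmodulin clone 53e17 at 0.059. No neighbours are given for clone 15o22, which did not itself meet the background filter set for the 640 probes.

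**Figure D4:**
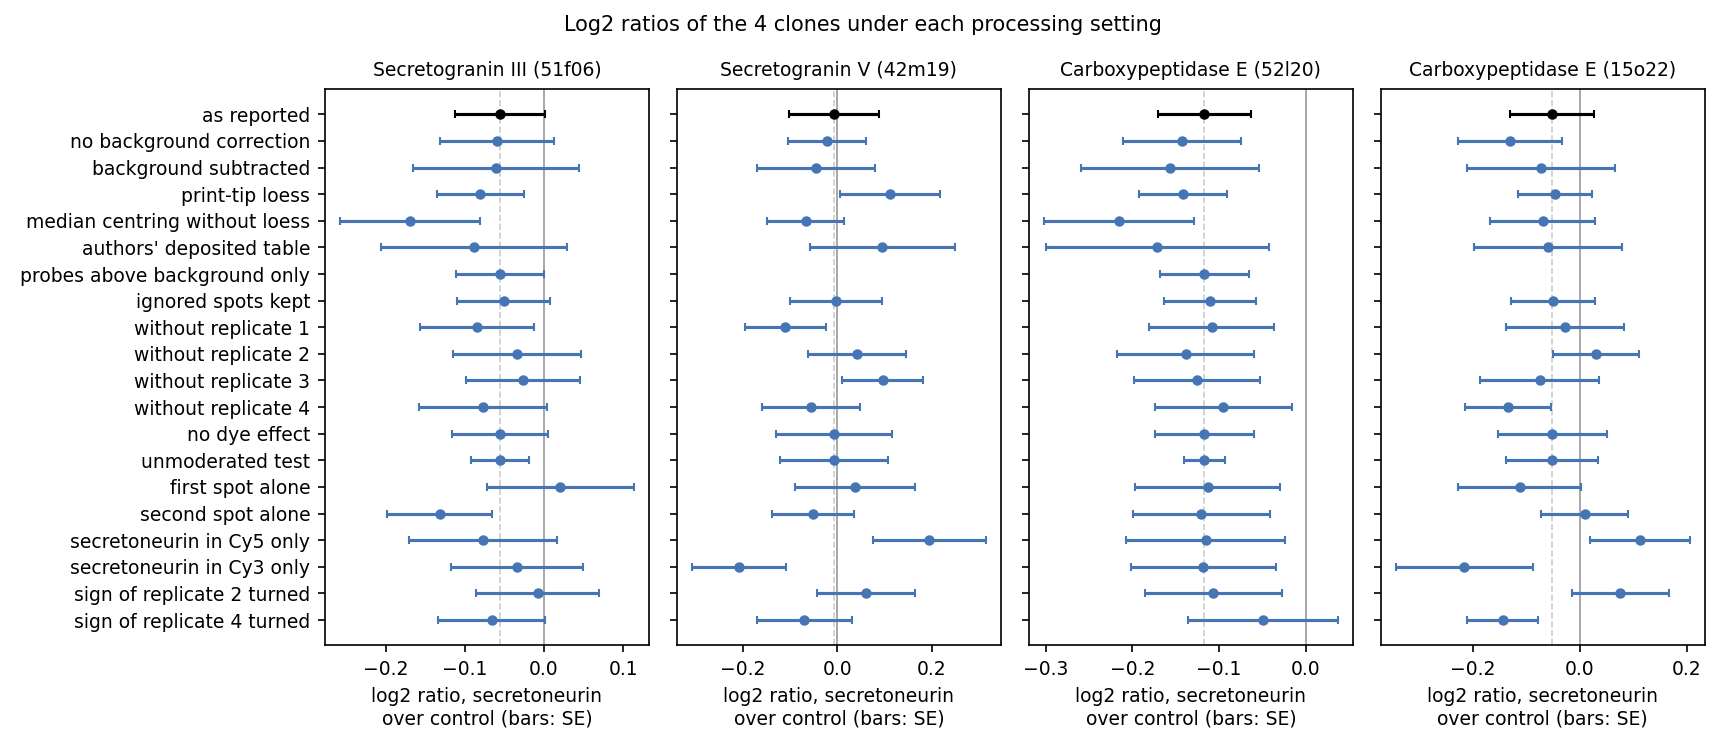
Log2 ratio of secretoneurin over control (horizontal axis, whose range differs between panels; bars are SE) of each clone under each processing setting (one per line, the reported value on top in black, dashed line through it). Clone 52l20 lies below 0 on every line, from -0.22 to -0.049, while secretogranin V and clone 15o22 lie on both sides of 0. Some of these lines could not change side for 52l20, as given in the text.

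Under the 19 other settings tried for it, clone 52l20 kept a ratio below 0, between -0.22 with median centring in place of loess and -0.049 with the sign of replicate 4 turned. Its unadjusted p ran from 0.0376, without moderation of the variances, to 0.597, with replicate 4 turned, and was under 0.05 in 2 of the 19. The lowest adjusted p in limma over these settings was 0.635. Secretogranin III lay between -0.17, with median centring, and 0.021, with its first spots alone. Its ratio was below 0 in 18 of 19 settings. For both clones, leaving out the dye effect, the moderation of variances or the probes near background cannot move the ratio. Those settings stayed at -0.12 for 52l20 and -0.055 for secretogranin III, and they do not bear on direction. For 52l20 the same holds with 1 replicate left out or with 1 dye orientation alone. Those fits average array ratios that all lay below 0, so they could not change side.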

How the data were processed

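Per the file headers, the deposited scanner files give, for both dyes, linear spot intensity and local background, with no subtraction or crosstalk correction applied, and say which spots to ignore. The authors' deposited value table holds values taken as log2 ratios of Cy5 over Cy3 per spot, from their correlation with the scanner log2 ratios of Cy5 over Cy3. It was 0.545 to 0.709 for uncorrected ratios, 0.862 to 0.920 with background subtracted and 0.840 to 0.865 after loess. The column medians of the table were 0.0037, 0.031, 0.0037 and -0.046. The log base and method stayed unknown, and it served as an alternative only. Per the labels' protocols, RNA came from a TRIzol extraction with a DNase step and was labelled with a Genisphere kit.

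Background was corrected with normexp (offset 50). Ratios were normalized by loess within each array (span 0.3, 4 iterations) and turned to secretoneurin over control, and the 2 spots of a clone were averaged. Ignored spots (421, 720, 981 and 718 on replicates 1 to 4) and 1128 control spots per array had no weight. Median intensity was 156 to 221 in Cy5 and 400 to 653 in Cy3. limma 3.58.1 in R 4.3.3 fitted a secretoneurin and a dye effect, leaving 2 residual degrees of freedom, to 8089 probes with values on at least 3 arrays. Tests were two-sided, with Benjamini-Hochberg adjustment over all of them and a threshold of 0.05. Levels were scaled between arrays with Aquantile. The script was tested on simulated data.

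Named are the 4 clones, each granin or processing clone, the 3 probes of smallest unadjusted p of each other pathway list and the 3 nearest probes in pattern (not given for 15o22). Members and lists were chosen with earlier results of these data known. Sequences of the clones were not used here.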

Additional observations from a re-analysis of the deposited data

How the results depend on the processing

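Every alternative kept the 4 clones short of an adjusted p of 0.05. The estimate of 42m19 changed direction to 0.11 with loess within print blocks, 0.095 in the authors' deposited table, 0.037 with its first spots alone, 0.19 with secretoneurin in Cy5 only and 0.061 with the sign of replicate 2 turned. Leaving out 1 replicate at a time gave it -0.11 to 0.096, above 0 without replicate 2 (0.042) or replicate 3 (0.096). That of 15o22 changed to 0.0087 with its second spots alone, 0.11 with secretoneurin in Cy5 only and 0.076 with the sign of replicate 2 turned, and lay between -0.13 and 0.031 with 1 replicate left out, above 0 without replicate 2. That of 51f06 changed to 0.021 with its first spots alone. The mean difference between the carboxypeptidase E clones over the arrays kept its direction in 13 of 14 alternatives and turned to 0.098 with secretoneurin in Cy3 only. It was near 0 without replicate 3 (-0.00056) and with the sign of replicate 4 turned (-0.0097), where the fitted estimates differed by 0.096 instead. The settings with 1 dye orientation or a turned sign were added after the data were seen.

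Over all probes, 0 passed the adjusted test and 223 an unadjusted p under 0.05 in limma. Without replicate 2, 346 passed the adjusted test (37 higher, 309 lower), and without replicate 4, 437 (419 higher, 18 lower), where 1 array is left with secretoneurin in Cy3 and is taken to vary as the rest do. With 1 replicate left out the adjusted count ran from 0 to 437 and the unadjusted one from 91 to 1120, with 944 without replicate 2 and 1120 without replicate 4. The unadjusted count was 21 among the 839 probes above background on all 4 arrays (1 higher, 20 lower), where fewer probes were tested. It was 389 without moderation. Higher and lower unadjusted calls numbered 97 and 126, but 126 and 82 with background subtracted, 55 and 127 with loess within print blocks and 88 and 63 in the authors' deposited table. For 42m19 and 15o22 the filter on dim probes left no value. Each ratio sets the 2 samples of 1 array against each other, so the analysis is paired throughout. Dim signal limits what can be said of 15o22.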
